A study of Mus musculus with 6 samples.

Results

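The globins are the protein chains of haemoglobin, and 9 of the 12422 probe sets of the array name only globin genes of the mouse: 4 name an embryonic globin (Hbb-y on 2 probe sets, Hbb-bh1 and Hba-x) and 5 name adult globins (Hba-a1, Hba-a2, Hbb-b1, Hbb-b2, Hbb-bt and Hbb-bs). The probe sets were chosen by gene name in the platform annotation, and all 9 listed genes were named on at least 1 of them. The family was taken up because a probe set for Hbb-y had one of the largest genotype differences on these same arrays. The genotype values of the globins below are therefore a description, and nothing is read from a test of them.

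One group of mice carried a disruption of Aire on both chromosomes, written Aire-/- here, and was set against wild-type (WT) mice. Aire encodes a transcriptional regulator through which epithelial cells of the thymic medulla transcribe many genes of other tissues. There were 3 arrays per genotype. Every array read 1 pool of 5 thymi, taken at 3 to 5 weeks of age from males and females of a B6/129 F2 background. In both genotypes the sort took cells negative for CD45 and positive for the epithelial antibody G8.8. They were also intermediate for CDR1 and high for B7.1, a costimulatory molecule. CD45 marks white blood cells and not mature red cells. Their RNA went through 2 rounds of amplification based on T7 polymerase. A pool gives 1 value, so differences between animals within a pool are not seen, and the sample size is the number of arrays, not of animals.

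Of 9 genes on the array listed for medullary epithelium, H2-Aa, Krt8, Cldn4, Epcam, Cldn3 and Cd80 were above the dim limit on all 6 arrays. Cd80 is the gene of B7.1. The keratins Krt5 and Krt14 lay under that limit on all 6. Some of the listed genes, such as H2-Aa and Krt8, are not confined to the medulla. The probe set for Aire gave 202, 297 and 211 on the Aire-/- arrays and 59.9, 96.4 and 138 on the WT arrays. Because the disrupted part of the gene is unknown here, this signal is no check of the genotype. Beta-actin was read by a 3' and a 5' probe set, and the 3'/5' ratio of their signals, a sign of RNA quality and amplification, was 4.38 to 13.4 on the Aire-/- arrays and 5.42, 95.8 and 13.8 on WT arrays 1 to 3. WT array 2 thus stood apart. Log2 differences without it are given for a probe set of Hbb-y, for Hba-x and for the adult alpha globins only.

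Haemoglobin joins alpha-like with beta-like chains around haem, the iron-bearing group that binds oxygen. The primitive red cells of the yolk sac use embryonic chains, the alpha-like zeta chain of Hba-x and the beta-like chains of Hbb-y and Hbb-bh1, and the definitive red cells of fetal liver and bone marrow use the adult chains. The alpha-like genes lie in one cluster on chromosome 11 and the beta-like genes in another on chromosome 7, each with the embryonic genes at one end. The adult beta genes are named by haplotype: Hbb-bs and Hbb-bt are those of C57BL/6 mice, and Hbb-b1 and Hbb-b2 those of strains such as 129, so a B6/129 F2 animal can carry either or both.

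The stretches of 120 bases before the annotated start are shown for 5 of the 6 members that the RefSeq promoter table holds (assembly GRCm38.p6, each 5′ to 3′ on the strand of the gene), to set the short promoter elements of embryonic and adult members side by side. Capitals mark the CACCC element, the CCAAT box, the GATA core and the TATA-box words TATAA or ATAAA, each on either strand. The last pair overlap where they fall together. Hba-a2 has nearly the same upstream letters as Hba-a1 and is not shown.
Hbb-y, embryonic beta-like, chr7:103853208-103853327, minus strand: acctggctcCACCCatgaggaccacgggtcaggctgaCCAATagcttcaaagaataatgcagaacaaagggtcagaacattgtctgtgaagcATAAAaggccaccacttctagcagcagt
Hba-x, embryonic alpha-like, chr11:32276480-32276599, plus strand: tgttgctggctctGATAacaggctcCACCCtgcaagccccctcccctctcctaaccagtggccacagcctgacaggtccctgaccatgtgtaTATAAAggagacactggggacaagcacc
Hba-a1, adult alpha, chr11:32283552-32283671, plus strand: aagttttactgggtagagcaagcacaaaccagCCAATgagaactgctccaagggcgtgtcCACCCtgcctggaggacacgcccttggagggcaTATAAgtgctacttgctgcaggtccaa
Hbb-bt, adult beta, chr7:103813924-103814043, minus strand: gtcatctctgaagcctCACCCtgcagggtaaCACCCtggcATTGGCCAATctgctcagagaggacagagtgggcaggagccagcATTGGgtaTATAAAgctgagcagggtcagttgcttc
Hbb-bs, adult beta, chr7:103827929-103828048, minus strand: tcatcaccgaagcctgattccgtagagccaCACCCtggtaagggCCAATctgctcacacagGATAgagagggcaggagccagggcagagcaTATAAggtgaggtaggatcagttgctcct

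CACCC, the core of the element bound by the erythroid factor Klf1, was found in all 6 globin windows, against 31.7% of 32851 windows of that length in the table. CCAAT was found in 5 of the 6 globin windows (21.3% of all windows) and was missing from that of Hba-x. TATAA was found in 5 of 6 (11.8%), all but Hbb-y, whose window held ATAAA starting 28 bases before the start. ATAAA was in 3 of 6 (20.2%), and GATA, the core bound by GATA factors, in 2 of 6 (29.5%), those of Hba-x and Hbb-bs. Such matches describe the letters of these windows and are not evidence of binding.

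Among the globin probe sets, the widest gap between the genotypes was on a probe set naming the embryonic beta-like globin Hbb-y. Its family-type probe set, whose ID ends in _f_at, gave normalized signals of 12.3, 0.467 and 1.88 on Aire-/- arrays 1 to 3, against 30.3, 107 and 84.7 on WT arrays 1 to 3. All Aire-/- arrays lay under all WT arrays, with Aire-/- array 1 the highest of its group and WT array 1 the lowest of its own. Signals are in arbitrary units after quantile normalization, and values under a floor of 1.8 were raised to it before taking log2. On that scale the geometric means were 3.46 (SD 1.58 in log2, n = 3) in Aire-/- and 65.1 (SD 0.97, n = 3) in WT cells. The log2 difference, Aire-/- minus WT, was -4.23 ± 0.72 (SE). Of the Aire-/- arrays only array 1 lay above the dim limit of 5.53, the 40th percentile of all signals, so the size of the difference depends on the floor. It was -4.61 with the floor at the 10th percentile and -3.17 with it at the dim limit. That ending marks a probe set whose probes match several members of a gene family, so this signal may include other globins.

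The second probe set for Hbb-y, whose ID carries no such ending, was dim. It gave 2.7, 2.45 and 3.52 on the Aire-/- arrays and 2.94, 4.35 and 9.25 on the WT arrays. The groups overlapped, and only WT array 3 rose above the dim limit. The log2 difference was -0.78, with no fold given because both geometric means lay under the limit. The pair of Hbb-y probe sets therefore shared a direction in their means, while the wide gap was seen on the family-type one.

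Hbb-bh1, the other embryonic beta-like chain, measured 2.12, 4.45 and 1.57 on the Aire-/- arrays and 3.25, 6.82 and 9.48 on the WT arrays. Its probe set was under the dim limit on all 3 Aire-/- arrays and on WT array 1, so the signal was at least 1.07-fold lower in Aire-/- cells, and the groups overlapped. It did not pass the filter on dim signals and was not tested.

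Hba-x, the embryonic alpha-like zeta chain, was also lower in Aire-/- cells, with 4.87, 3.78 and 7.2 on the Aire-/- arrays and 14.1, 9.85 and 16 on the WT arrays. The groups did not overlap, and Aire-/- array 3 was the only Aire-/- array above the dim limit. The geometric means were 5.1 (SD 0.47 in log2, n = 3) in Aire-/- and 13 (SD 0.36, n = 3) in WT cells, a log2 difference of -1.35 ± 0.42 (SE), or -1.11 with the floor at the dim limit. Without WT array 2 the difference was -1.56. Hba-x lies in the alpha cluster, on another chromosome than Hbb-y.

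**Figure D1:**
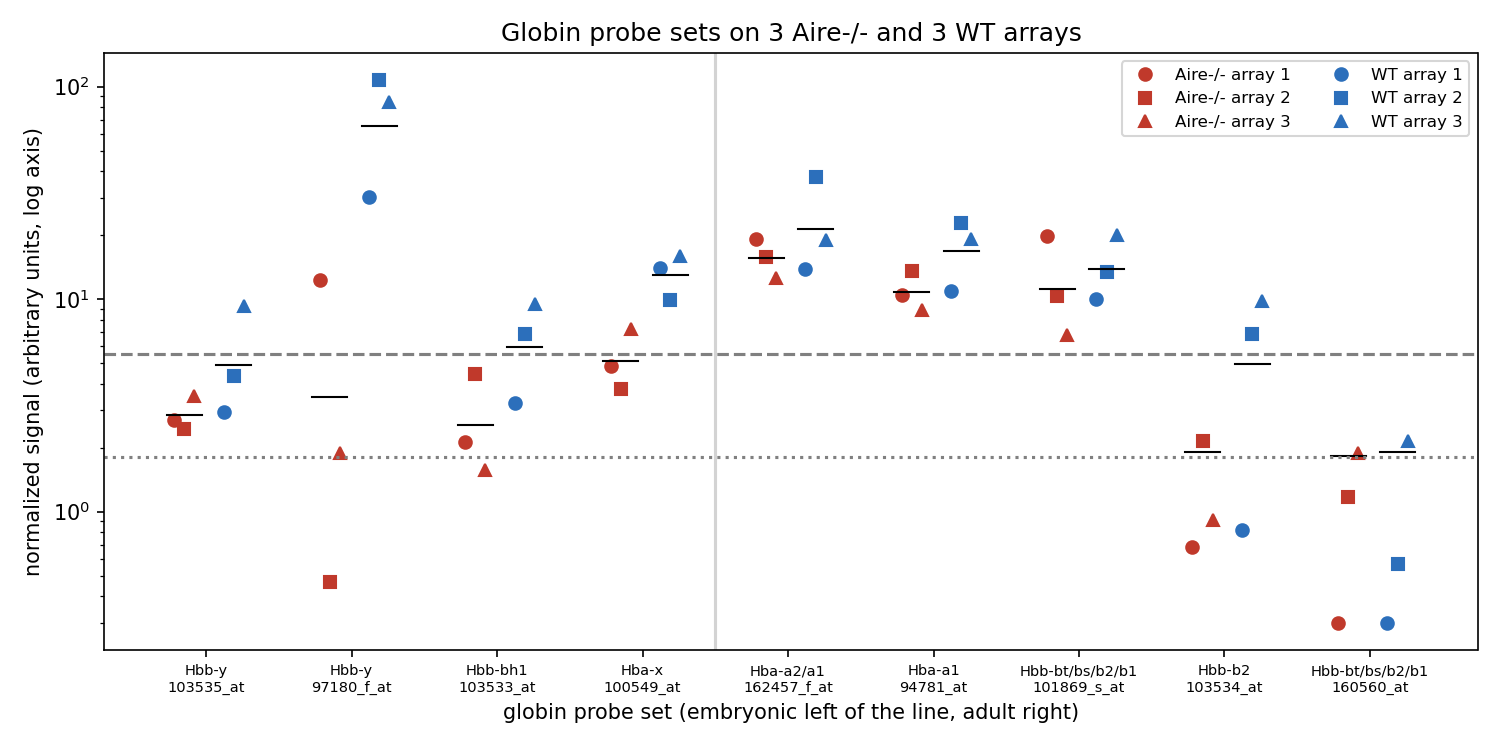
Normalized signal (arbitrary units, log axis) of the 9 globin probe sets on each array, Aire-/- arrays left and WT arrays right within a probe set. Black bars are geometric means after values under the floor of 1.8 (dotted line) were raised to it, and the dashed line is the dim limit of 5.53. The Aire-/- and WT points separate for the family-type probe set of Hbb-y and for Hba-x and overlap for the other 7.

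The adult alpha chains are encoded by Hba-a1 and Hba-a2, near-identical genes whose probe sets may not separate them. The probe set naming Hba-a1 alone gave 10.5, 13.6 and 8.85 on the Aire-/- arrays and 10.9, 22.7 and 19.2 on the WT arrays, a log2 difference of -0.64 ± 0.38 (SE). The probe set naming both, also of the family type, gave 19.2, 15.8 and 12.5 on the Aire-/- arrays and 13.9, 37.4 and 18.9 on the WT arrays, a log2 difference of -0.46 ± 0.41 (SE). Both were above the dim limit on all 6 arrays, and the groups overlapped on both. Each was highest on WT array 2, the array with the high beta-actin ratio, and without that array the difference was -0.05 on the probe set naming both and -0.42 on that naming Hba-a1 alone.

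The adult beta chains were read by 3 probe sets. The brighter of a pair that name Hbb-bt, Hbb-bs, Hbb-b2 and Hbb-b1 together was above the dim limit throughout, with 19.7, 10.4 and 6.8 on the Aire-/- arrays and 10.1, 13.4 and 20 on the WT arrays. The groups overlapped over nearly their whole range, and the log2 difference was -0.32 ± 0.45 (SE). Without Aire-/- array 3 the sign turned to 0.04. The dim probe set naming the same 4 genes lay at or near the floor on every array, from 0.3 to 1.88 in Aire-/- and from 0.3 to 2.15 in WT cells, and carries no usable difference.

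Hbb-b2, the minor adult beta chain of the 129 haplotype, has a probe set of its own. It measured 0.683, 2.15 and 0.917 on the Aire-/- arrays and 0.817, 6.82 and 9.75 on the WT arrays. WT arrays 2 and 3 lay above the dim limit while WT array 1 lay with the Aire-/- arrays. The log2 difference was -1.37, or -0.37 with the floor at the dim limit, and it was not tested. A further probe set names the processed alpha-globin pseudogene Hba-ps3, which is not among the members, and it gave 6.65, 6.72 and 6.8 on the Aire-/- arrays and 4.73, 11.2 and 1.25 on the WT arrays.

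Set side by side, the embryonic probe sets had log2 differences from -4.23 to -0.78 with a median of -1.28 (n = 4), and the adult probe sets from -1.37 to -0.06 with a median of -0.46 (n = 5). The median over all 12422 probe sets was 0.0032. With the floor at the dim limit the medians were -0.73 for the embryonic and -0.37 for the adult probe sets, and 4 of the 9 were too dim to be tested. The ranges of the embryonic and adult probe sets overlapped. The mean was lower in Aire-/- cells for all 4 embryonic and all 5 adult probe sets. The groups did not overlap for 2 of the 4 embryonic probe sets (family-type Hbb-y and Hba-x) and for 0 of the 5 adult ones, all being lower in Aire-/- cells where they separated. Over all probe sets 7.86% separated in that direction. The gap of the family-type Hbb-y probe set led to the choice of the family, and the embryonic count and median include it. Nothing is therefore read from that count or median. The difference between the embryonic and the adult probe sets was not tested. Of the 9 probe sets, 4, 3 and 4 were above the dim limit on Aire-/- arrays 1 to 3, and 5, 7 and 8 on WT arrays 1 to 3, where 59.4% to 59.9% of all probe sets were above it on every array.

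The filter on dim signals, above the limit on at least 3 arrays, left 5 of the 9 globin probe sets: 2 embryonic and 3 adult. The family-type probe set of Hbb-y passed on its 3 WT arrays and Aire-/- array 1, and Hba-x on its 3 WT arrays and Aire-/- array 3. In the limma fit over 7768 probe sets, 1 globin probe set, the family-type one of Hbb-y, was past a Benjamini-Hochberg adjusted p of 0.05, lower in Aire-/- cells, and 0 were higher, beside 1.38% lower and 0.348% higher of all tested probe sets. Because that difference led to the choice of the family, nothing is read from this count. It was the same with the replicate block, which fits the replicate number as a term, beside 3.37% lower and 1.93% higher of all tested probe sets. It was 0 with no filter on dim signals, and 0 without Aire-/- array 2, Aire-/- array 3, WT array 2 or WT array 3. Without each of these, in that order, the log2 difference of the family-type Hbb-y probe set was -3.76, -3.79, -3.87 and -4.04. The difference was -5.14 without Aire-/- array 1 and -4.78 without WT array 1.

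**Figure D2:**
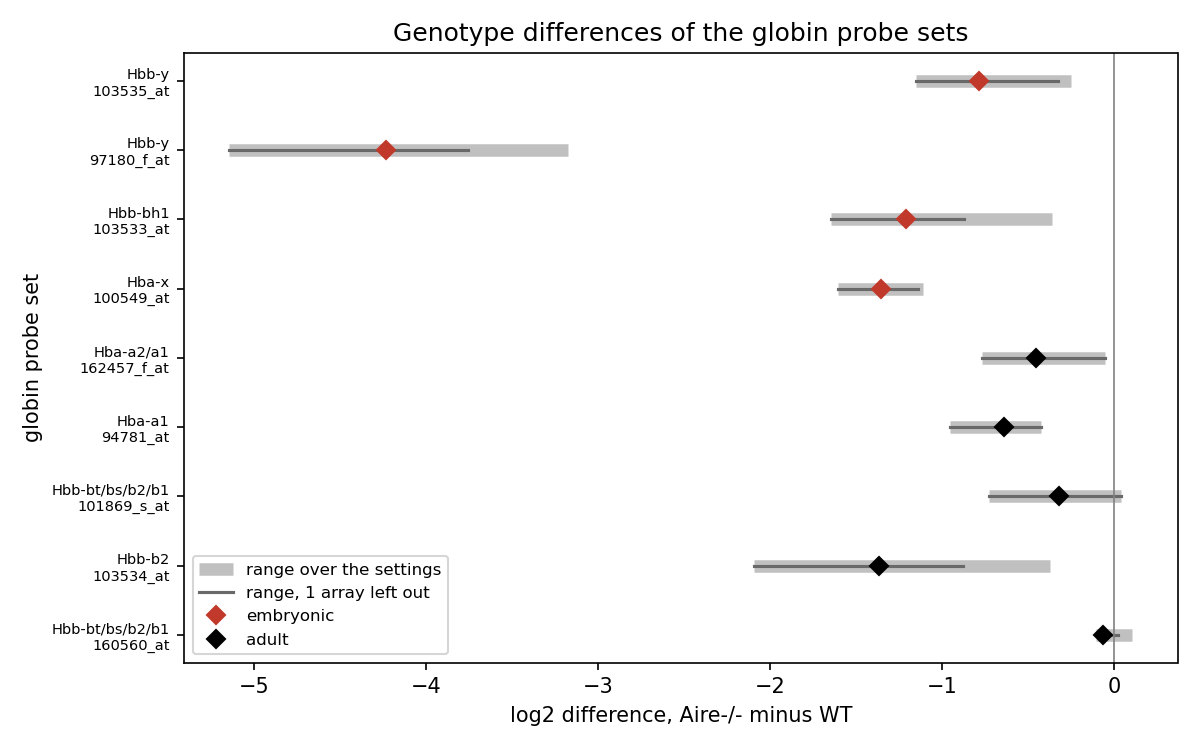
Log2 difference, Aire-/- minus WT, of each globin probe set (diamonds; red embryonic, black adult), with its range over 13 or 14 other settings (grey bars) and over the fits with 1 array left out (thin lines). The bar of the family-type Hbb-y probe set runs from -5.14 to -3.17 and that of Hba-x from -1.6 to -1.11, while those of both probe sets for all adult beta genes cross 0. Only the settings of scaling, floor and left-out arrays can change the difference.

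Genes that accompany globins in red cells were followed in 4 lists, of the red cell membrane, haem synthesis, erythroid transcription factors, and erythroid enzymes, receptors and chaperones. Of 49 listed genes 34 were on the array and 25 were tested, each by its brightest probe set. In the limma fit 0 were called lower and 0 higher in Aire-/- cells, beside 1.33% and 0.387% of all genes. At an unadjusted p under 0.05, 3 of the 25 were lower and 2 higher, beside 8.2% lower and 6.67% higher of all genes. The median log2 difference of the 25 was 0.12, against 0.05 for all tested genes, with 11 below 0 and 14 above. The summed signal of the 34 ranged from 1185 to 1376 on the Aire-/- arrays and from 934 to 1324 on the WT arrays. In it Alas1, a haem synthesis gene used in all tissues, had geometric means of 434 in Aire-/- and 283 in WT cells. Alas2, its erythroid counterpart, had 20.1 in Aire-/- and 8.56 in WT cells. The sum is thus weighted to the brightest genes and does not measure red cell content. In sorted pools, fewer cells of a type and less RNA per cell cannot be told apart.

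Haem synthesis was the list in which all tested genes, 7 of 7, lay above 0, with a median of 0.34. Alas2, the erythroid form of the first enzyme of the pathway, gave 19.6, 21.9 and 19.1 on the Aire-/- arrays and 7.93, 10.2 and 7.73 on the WT arrays. All Aire-/- values were above all WT values, opposite in direction to the embryonic globins. Its log2 difference was 1.23 ± 0.32 (SE). The limma adjusted p was 0.0899, or 0.0478 with the replicate block, where it was the only one of the 25 genes called, beside 2.15% of all genes called higher. Alas1, the form of that enzyme used in all tissues, had geometric means of 434 in Aire-/- and 283 in WT cells (adjusted p = 0.379). For Alad, the next enzyme, they were 18.6 in Aire-/- and 12.9 in WT cells (adjusted p = 0.527). Alas2 was not the only tested gene of the 4 lists whose groups did not overlap. Hebp1 separated in the same direction, and Aqp1, Lmo2 and Gfi1b separated in the other, lower in Aire-/- cells. These genes are taken up below. Over all probe sets 7.86% separated with Aire-/- lower.

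Of 5 tested membrane genes 4 lay below 0, with a median of -0.62. The water channel gene Aqp1 had geometric means of 3.3 in Aire-/- and 8.94 in WT cells (adjusted p = 0.266), and Rhag, of the Rh blood group complex, 3.46 in Aire-/- and 8.25 in WT cells (adjusted p = 0.374). Ank1, the ankyrin that ties the membrane to its skeleton, had 26.7 in Aire-/- and 39.6 in WT cells (adjusted p = 0.503), and another tested probe set of it had 6.77 in Aire-/- and 6.18 in WT cells. The anion exchanger gene Slc4a1, the most abundant membrane protein of red cells and named after its values were seen, had 4.97 in Aire-/- and 7.61 in WT cells (adjusted p = 0.63).

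The 8 tested transcription factors had a median of -0.09, with 4 on each side of 0. Lmo2, a bridging protein of the erythroid transcription complex, had geometric means of 3.85 in Aire-/- and 9.97 in WT cells (adjusted p = 0.289). The repressor Gfi1b had 4.57 in Aire-/- and 7.38 in WT cells (adjusted p = 0.532), and Gata2, active in early blood progenitors, 4.68 in Aire-/- and 8.27 in WT cells (adjusted p = 0.606). Klf1, which activates adult beta-globin, had 8.75 in Aire-/- and 10.9 in WT cells (adjusted p = 0.776), and Gata1, the central erythroid factor, was too dim to be tested, at 5.11 in Aire-/- and 3.39 in WT cells. Klf1 and Gata1 were named after their values were seen.

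Among 5 tested enzymes, receptors and chaperones the median was -0.17. The haem-binding protein gene Hebp1 had geometric means of 126 in Aire-/- and 68.5 in WT cells (adjusted p = 0.272), the carbonic anhydrase gene Car2 5.81 in Aire-/- and 15.7 in WT cells (adjusted p = 0.288), and the transferrin receptor gene Tfrc 39.5 in Aire-/- and 62.2 in WT cells (adjusted p = 0.495). Rhd, Fech, Tal1 and Sox6 lay under the dim limit on all 6 arrays. A second probe set of Aqp1, Lmo2, Gata2 and Tfrc each was too dim to be tested.

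Proteins that clear haemoglobin and haem or store iron formed a list of 8 genes, of which 5 were tested and 0 called, with a median of -0.31. Unadjusted p under 0.05 held for 1 lower and 0 higher of the 5, beside 8.2% and 6.67% of all genes. Hp, haptoglobin, which binds free haemoglobin in plasma, gave 17.5, 11.7 and 9.87 on the Aire-/- arrays and 74.9, 37.2 and 29.9 on the WT arrays. The groups did not overlap, and array 1 was the highest in each genotype. Its log2 difference was -1.79 ± 0.41 (SE). The limma adjusted p was 0.0574, or 0.00545 with the replicate block, beside 3.5% of all genes called lower. The haem oxygenase gene Hmox1 had geometric means of 33.9 in Aire-/- and 50.4 in WT cells (adjusted p = 0.523), and its groups did not overlap either. The haem scavenger gene Hpx had 4.45 in Aire-/- and 5.5 in WT cells (adjusted p = 0.904). The other tested probe set of Hpx, of the family type, gave 0.917, 1.1 and 2.08 on the Aire-/- arrays and 5.78, 6.06 and 6.73 on the WT arrays (adjusted p = 0.252), at least 1.12-fold lower in Aire-/- cells, so the groups separated on that probe set and overlapped on the brightest. Myoglobin (Mb), the oxygen binder of muscle, was the only one of 3 other globin-fold genes on the array, and it was not tested, at 6.65, 0.917 and 4.93 on the Aire-/- arrays and 0.717, 1.3 and 0.567 on the WT arrays.

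**Figure D3:**
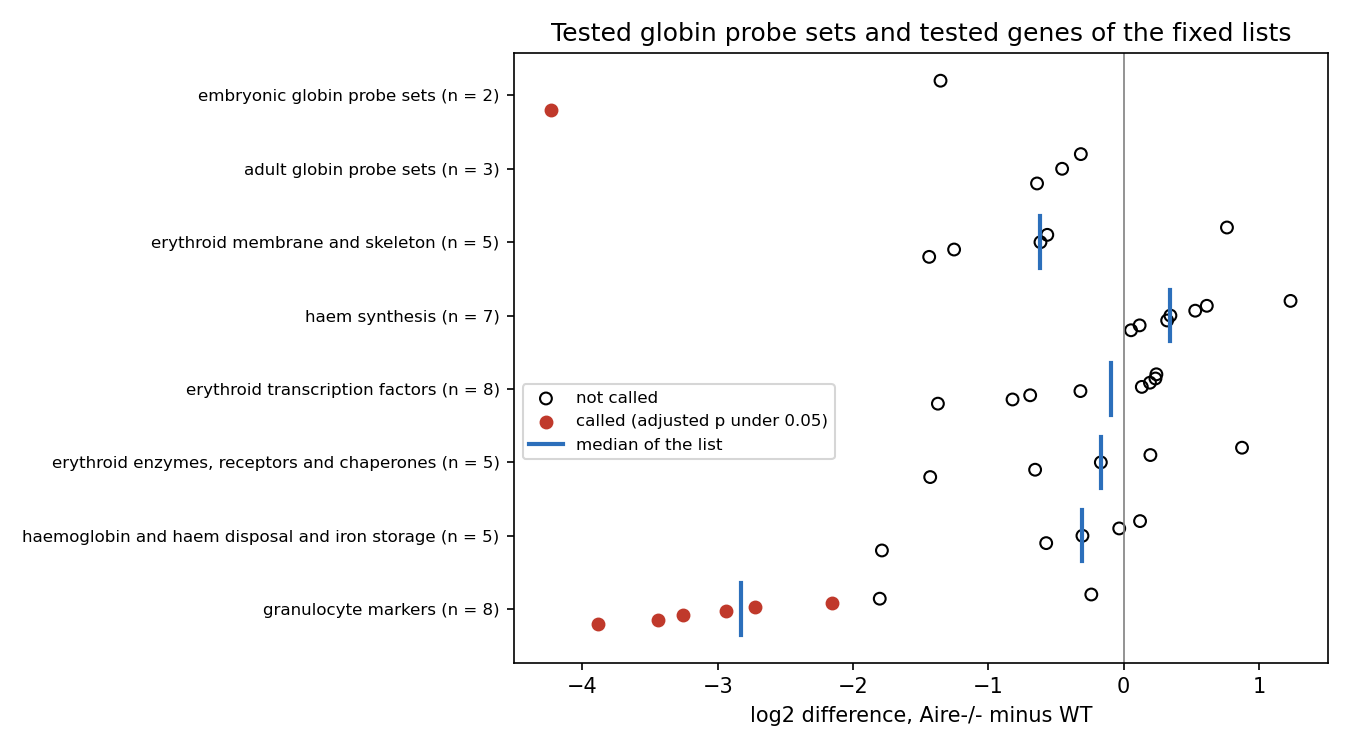
Log2 difference, Aire-/- minus WT, of each tested globin probe set and each tested gene of the lists (n beside the name); filled red points were called at an adjusted p under 0.05, open points were not, and blue bars are list medians. The embryonic row holds the family-type Hbb-y probe set at -4.23 and Hba-x at -1.35. The 4 erythroid lists hold no called gene, and 6 of 8 granulocyte markers were called lower.

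Markers of granulocytes, cells that the sort against CD45 is meant to remove, were mostly lower in Aire-/- cells, as the embryonic globins were. Some of the listed genes, such as S100a8, S100a9 and Lcn2, are not confined to granulocytes. Which cells gave these signals was not tested. Of 11 markers on the array 8 were tested, and 6 were lower in Aire-/- cells in the limma fit and 0 higher, beside 1.33% lower and 0.387% higher of all genes, with a median of -2.83. They were Ly6g, Ltf, Ngp, S100a9, Camp and S100a8, with adjusted p from 0.00570 for Ltf to 0.0419 for S100a8. Ly6g lay under the floor on all 3 Aire-/- arrays and gave 50.9, 12.8 and 28.9 on the WT arrays, at least 4.81-fold lower in Aire-/- cells. The summed signal of the 11 markers was 94.6 to 115 on the Aire-/- arrays and 330 to 845 on the WT arrays. Prtn3, a granule protease gene too dim to be tested, separated the other way, with 7.62, 5.53 and 4.73 on the Aire-/- arrays and 4.15, 3.78 and 2.27 on the WT arrays. Ptprc, the gene of CD45 itself, was also higher in Aire-/- cells on its brightest probe set (limma adjusted p = 0.586). It gave 7.93, 7.83 and 10.3 on the Aire-/- arrays and 5.15, 7.22 and 5.33 on the WT arrays. Ptprc was named after its values were seen. Elane and Ctsg were under the dim limit on all 6 arrays, Mpo had geometric means of 3.27 in Aire-/- and 11.4 in WT cells (adjusted p = 0.223), and Lcn2 18.5 in Aire-/- and 21.8 in WT cells (adjusted p = 0.86). The granulocyte markers were lowest in WT array 1, the WT array with the lowest Hbb-y signal, for S100a8, S100a9, Camp, Ngp and Mpo, but highest there for Ly6g, Ltf and Lcn2. S100a8, S100a9, Camp and Ngp were highest on WT array 2, the array with the high beta-actin ratio, but Ly6g and Lcn2 were lowest of the WT arrays there. The part of such cells in the globin values was not tested.

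Other marker lists held 0 called genes in the limma fit: 6 tested genes of T cells and thymocytes, 3 of B cells, 4 of macrophages and dendritic cells, 1 of platelets, 4 of endothelium and 7 of medullary epithelium. At an unadjusted p under 0.05 these lists together held Csf1r and Epcam lower and Blk, Cd68 and Aire higher among 25 tested genes, beside 8.2% lower and 6.67% higher of all genes. With the replicate block Blk (adjusted p = 0.0249), Cd68 (0.0239) and Aire (0.0191) were higher and Epcam was lower (0.0315), beside 2.15% higher and 3.5% lower of all genes. Epcam, which encodes the antigen of the sorting antibody G8.8, had geometric means of 89.2 in Aire-/- and 197 in WT cells, and the groups did not overlap. Whether the sort took like cells in both genotypes was not tested.

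The genes beside the globin clusters were followed next. Of the 6 protein-coding genes on each side of the beta cluster, all olfactory receptor genes in the GRCm38.p6 gene order, 0 were named on the array. Of 12 such genes beside the alpha cluster 6 were on the array and 5 were tested, with 0 called in the limma fit and 1 higher at an unadjusted p under 0.05 (6.67% of all genes). That gene, Nsg2, of neuronal endosomes, gave 28.9, 42.4 and 33.4 on the Aire-/- arrays and 1.82, 8.62 and 12.5 on the WT arrays, a log2 difference of 2.57 ± 0.61 (SE). Its adjusted p was 0.0658, or 0.00676 with the replicate block. Snrnp25, a spliceosome gene, and Mpg, a DNA repair glycosylase gene, which lie between Nsg2 and the alpha cluster, had differences of 0.03 and 0.53 (adjusted p = 0.982 and 0.778). On the other side Stk10 and Fbxw11 had -0.17 and -0.23 (adjusted p = 0.872 and 0.781). Il9r, on the same side as Nsg2, was not tested.

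The genes whose log2 signal was most like that of a globin over the 6 arrays were sought among 6984 tested probe sets with 1 gene. For the family-type Hbb-y probe set they were Mucl1, a mucin-like gene of secretory glands (r = 0.999), Oxt, the oxytocin precursor (0.982), Sytl4, of secretory granule docking (0.981), Tac1, a neuropeptide precursor (0.977), and Bex4 (0.976). Tac1 was called lower in Aire-/- cells, with geometric means of 5 in Aire-/- and 20.4 in WT cells (adjusted p = 0.0274), and Mucl1 had 2.51 in Aire-/- and 14 in WT cells (adjusted p = 0.0603, or 0.0328 with the replicate block). Like the family-type Hbb-y probe set, all 5 were lowest among the WT arrays on array 1. These correlations, over 6 arrays split by genotype, describe the arrays and carry no test. The 5 genes were picked for likeness to a probe set with a wide genotype gap. Their lower Aire-/- means and shared order of arrays largely follow from that pick, so nothing is read from their adjusted p.

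For the adult probe set naming Hba-a2 and Hba-a1 the most alike were Tcea2, a transcription elongation factor (r = 0.992), Unc119b (0.991), Ltk, a receptor tyrosine kinase (0.986), Acsm2, an acyl-CoA synthetase (0.986), and Plppr2 (0.985). All 5, picked in the same way, were highest on WT array 2 and had overlapping groups, with log2 differences from -0.55 to -0.30.

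**Figure D4:**
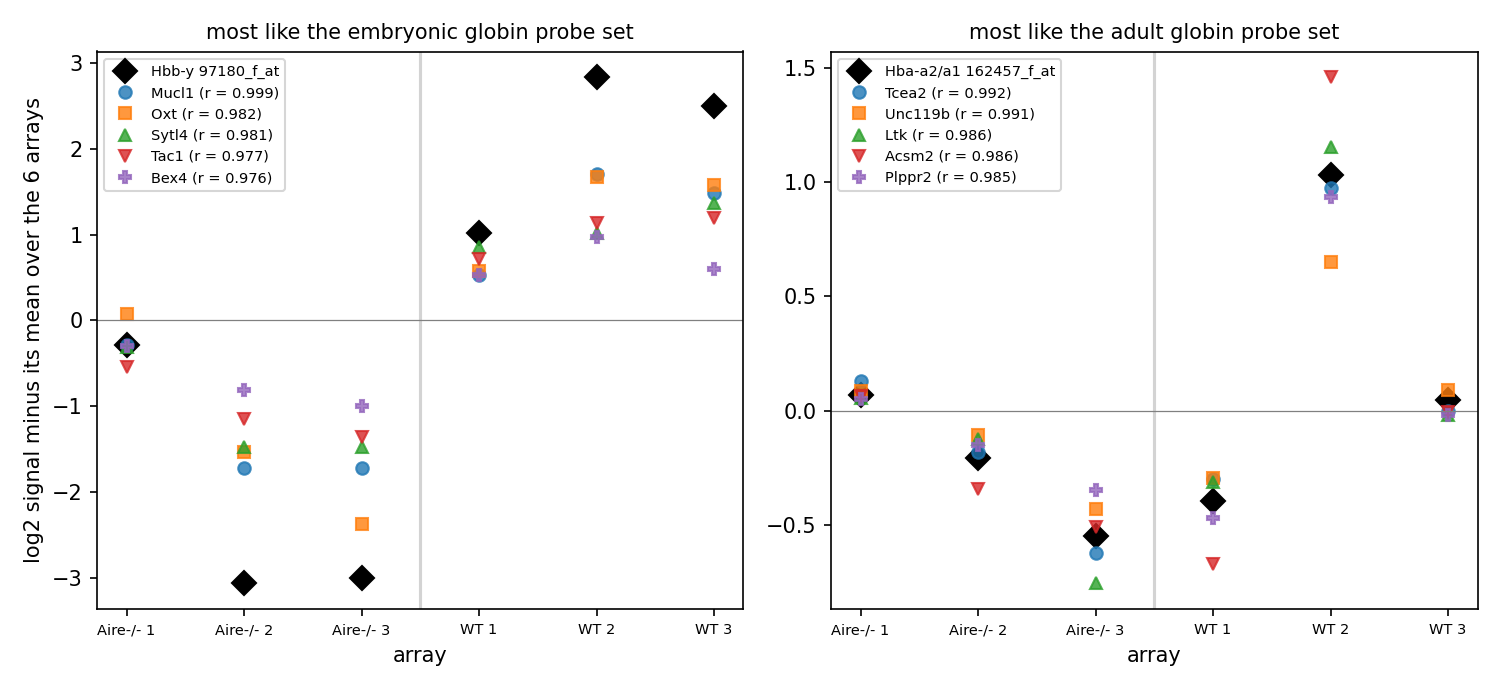
Log2 signal minus its mean over the 6 arrays (y) on each array (x), Aire-/- left of WT, for the family-type probe set of Hbb-y (left, black) and that naming Hba-a2 and Hba-a1 (right, black) with the 5 genes most like each. On the left the 3 Aire-/- points of that Hbb-y probe set lie under its 3 WT points, and on the right WT array 2 stands above the other 5 arrays.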

How the data were processed

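The authors deposited a linear intensity for each probe set, with 1 decimal; software, background correction and scaling: not given in the sources used here. The 66 control probe sets among 12488 were dropped. Array medians were 7.5 to 9.1 before quantile normalization between arrays. A floor at the 20th percentile of all values (1.8) preceded the log2 step. A probe set was tested if above the pooled 40th percentile (5.53, the dim limit) on at least 3 of 6 arrays, which left 7768. For a group with all 3 arrays under that limit, a fold is "at least", the brighter geometric mean over the limit.

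Aire-/- and WT arrays were compared with limma 3.58.1 (lmFit, eBayes with a variance trend) in R 4.3.3, 2-sided, with Benjamini-Hochberg adjustment over all tested probe sets and a threshold of 0.05. The procedure was tested on simulated data. In list counts a gene stands for its probe set with the highest mean log2 signal. Of 10833 probe sets with 1 gene, 10817 matched GRCm38.p6 by Entrez identifier; 396 named several genes and 1193 none.

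The correlation of deviations from group means was 0.37, 0.20 and 0.19 for arrays sharing a replicate number and -0.25 to 0.07 for others. The replicate number was therefore fitted as a term in an alternative, the replicate block. The reported fit had no such term, so its standard errors, adjusted p and calls take no account of a pairing. What a shared number means is unknown here. Pools are separate samples, and the p-values reflect their spread, amplification included.

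Members and lists were chosen with earlier results of these data known. Named are every globin probe set, from each list the called genes and up to 3 more with the smallest p, the neighbours, and the 5 genes most alike, besides those said to be named after their values were seen. Alternatives were scaling, floor, filter, 1 probe set per gene, the variance trend, the replicate block and leaving out each array. The plots were made in Python 3.11.15 (matplotlib 3.10.9).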

Additional observations from a re-analysis of the deposited data

How the results depend on the processing

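The count of globin probe sets called lower was 1 in the reported fit and 0 with no filter on dim signals, where 9 globin probe sets and 11881 probe sets in all entered the fit; it was 0 to 1 with 1 array left out, and the cause was not tested. With the replicate block it stayed at 1. No globin was called higher in any setting run. The log2 difference kept its sign in every setting for 7 of the 9 globin probe sets. The exceptions were the brighter probe set naming all 4 adult beta genes, at 0.04 without Aire-/- array 3, and the dim one, at 0.11 with the floor at the 10th percentile, 0 with it at the 40th and 0.02 without WT array 3. The filter, 1 probe set per gene, the variance trend and the replicate block cannot change this difference. Only scaling, floor and left-out arrays therefore bear on its sign. In the erythroid lists 0 genes were called lower in every setting, and 0 higher except 1 with the replicate block. Over the whole array 107 probe sets were lower and 27 higher; the counts were 262 and 150 with the replicate block, 53 and 14 with no filter, and 25 to 79 and 2 to 16 with 1 array left out. Higher counts were 71 on the values as deposited, with 102 lower, and 55 with median scaling, with 97 lower, where the median difference of all tested probe sets was 0.17 on both. Leaving out an array leaves its group with 2, and dim signals limit 4 of the 9 globin probe sets.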
